A study of Homo sapiens with 12 samples.

Results

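The integrated stress response mRNAs described here were 10 genes chosen by name and found by their GENCODE symbol among the 58721 genes of the count tables. The list held 7 mRNAs with known upstream open reading frames (uORFs), namely ATF4, ATF5, DDIT3, PPP1R15A, PPP1R15B, IFRD1 and SLC35A4. The other 3 genes, ASNS, TRIB3 and CHAC1, are transcribed under the control of the ATF4 protein. Ribosome profiling was carried out in HepG2, an established human liver cancer cell line, 2 days after transient knockdown of IGF2BP3, which encodes an RNA-binding protein (siIGF2BP3), or control knockdown (siControl). The labels of all 12 libraries, siControl and Input included, give cycloheximide at 100 μg/mL for 4 min, an agent that halts elongating ribosomes. Input libraries reported RNA level, and RPF libraries held ribosome-protected fragments of 28 to 30 nt. Each condition and assay gave 3 libraries, 12 in total. No label names an agent that induces stress, so both conditions were without a labelled stress treatment.

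In the integrated stress response, kinases that sense amino acid shortage, heme shortage, viral RNA or unfolded protein phosphorylate the initiation factor eIF2 on its alpha subunit. Less initiator tRNA then reaches the ribosome, and most mRNAs are translated less. In unstressed cells, ribosomes that translate a uORF often fail to reinitiate at the main ORF, and mRNAs such as ATF4 are held at low output. Under stress, scanning ribosomes pass the inhibitory uORF and reach the main start, and the ATF4 protein then raises genes of amino acid supply and feedback.

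The starts of the upstream and main ORFs were read from the MANE Select transcript of each member (GENCODE release 44, hg38), since these starts define the group. In the lines that follow, each window holds 9 bases before and 9 bases after a start codon, 5′ to 3′ on the gene's own strand, and capitals mark the ATG.
ATF4 start-stop uORF: cgcccacagATGtagttttct
ATF4 short uORF: acggccaccATGgcgtattag
ATF4 overlapping uORF: gcttaagccATGgcgcttctc
ATF4 main ORF: caccgcaacATGaccgaaatg
ATF5 short uORF: gccccggccATGgctctgtag
ATF5 overlapping uORF: gctgcagccATGgagtcttcc
ATF5 main ORF: gctacagccATGtcactcctg
DDIT3 first uORF: gagcgtatcATGttaaagatg
DDIT3 main ORF: actgcagagATGgcagctgag
PPP1R15A second uORF: gagggtgagATGaacgcgctg
PPP1R15A main ORF: cccagacacATGgccccaggc
PPP1R15B second uORF: cccgccaggATGgaagtcgca
IFRD1 uORF: gagagaaacATGtatcgtttt
SLC35A4 first uORF: gcggggaagATGgcggatgac
TRIB3 first uORF: gtgcagcggATGcagaggaga
ASNS main ORF: cattgcaccATGtgtggcatt

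ATF4 and ATF5 shared one layout. In each, a uORF of 3 codons before its stop was followed by a uORF of 59 codons that ran past the main start in another frame. Both windows of the short uORFs show their stop, the final tag, which lies at chr22:39520639-39520659 (+ strand) for ATF4 and chr19:49929265-49929285 (+ strand) for ATF5. ATF4 had a further start followed at once by a stop, at chr22:39520577-39520597. The start of the overlapping uORF stood 97 bases before the main start in ATF4 and 124 bases before it in ATF5, and both of these windows spanned an exon junction.

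The other leaders differed from this layout. DDIT3 carried in-frame starts of 34 and 31 codons that ended at the same stop (first at chr12:57520469-57520489, - strand) and a 73-codon uORF that overlapped the main start. PPP1R15A had uORFs of 22 and 26 codons (second at chr19:48872545-48872565, + strand), and PPP1R15B had uORFs of 8 and 51 codons (second at chr1:204411631-204411651, - strand). IFRD1 had 1 uORF of 52 codons at chr7:112450478-112450498 (+ strand). SLC35A4 had 11 upstream starts, the first opening a reading frame of 103 codons at chr5:140564835-140564855 (+ strand).

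The ATF4-induced genes were not all free of uORFs. TRIB3 held upstream ORFs of 77 and 14 codons (first at chr20:380796-380816, + strand), whereas ASNS, whose main start lies at chr7:97869145-97869165 (- strand), and CHAC1 held none. Thus 8 of the 10 members had an upstream ATG, 26 upstream ATGs in all, and 3 had a uORF that overlapped the main start. Of the 19061 genes with a MANE Select transcript, 41.9% had an upstream ATG and 13.2% an overlapping uORF.

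**Figure D1:**
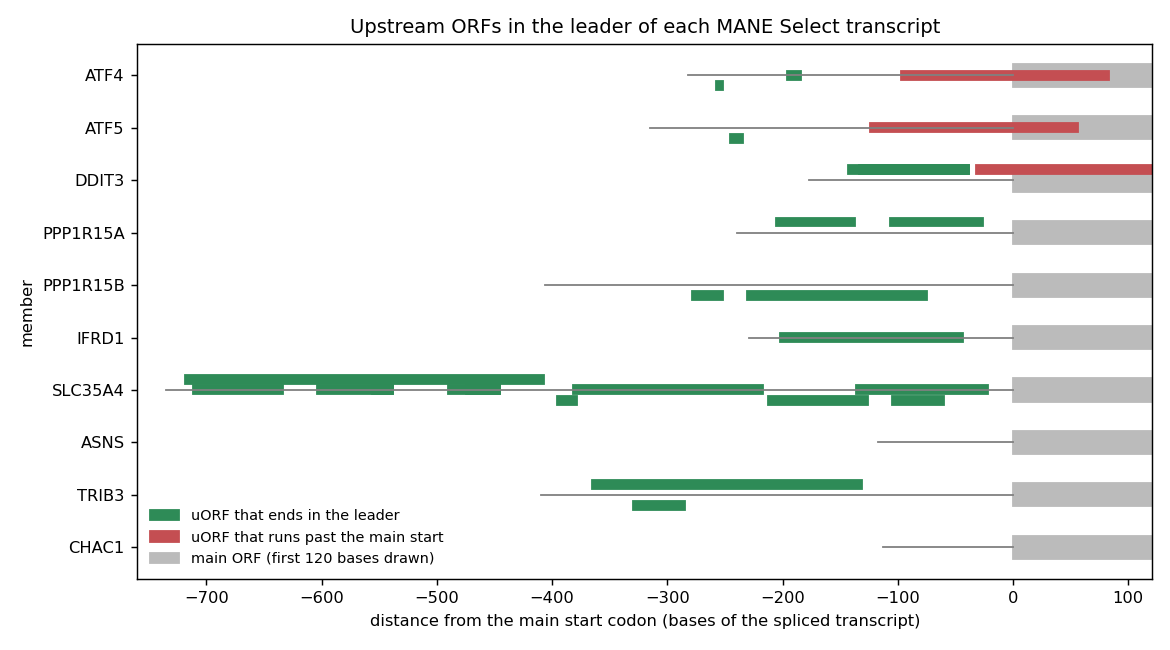
Upstream ORFs of the 10 members, drawn to scale as distance in bases of the spliced transcript from the main start codon at 0, with the 3 reading frames at 3 heights. Green boxes end within the leader, red boxes run past the main start and grey boxes are the first 120 bases of the main ORF; red boxes are present in ATF4, ATF5 and DDIT3, and ASNS and CHAC1 have no box upstream.

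Library totals ranged from 11219750 to 31510601 counts. Levels are in CPM, the counts of a gene scaled to the library total. IGF2BP3 itself ranged from 127 to 133 CPM in the control Input libraries against 97.9 to 105 CPM after its knockdown, and from 74.6 to 78.1 CPM against 21.9 to 28.0 CPM in RPF, so the groups did not overlap in either assay. siControl RPF replicates 2 and 3 differed by less than the sampling noise (mean chi-square per gene 0.941) and were counted as 1 sample in means. The main fits took them as separate libraries, and a fit with them summed was an alternative. siIGF2BP3 RPF replicate 1 stood apart, since its mean chi-square per gene was 19.9 and 21.5 against replicates 2 and 3. All 11 hepatocyte markers were detected, with summed levels of 52286 to 57558 CPM in Input, and 5 of them fell and 1 rose in RNA after the knockdown, against 5.96% of all genes called in RNA. The part of this in the members' values was not tested. Of 7 markers of lymphocytes, endothelium and fibroblasts, 1 (PECAM1) passed the filter on low counts, and their summed level was 2.03 to 3.03 CPM in Input and 3.64 to 5.86 CPM in RPF. The labels do not say whether replicates were separate cultures, so p-values measure the spread between these libraries, which may be technical.

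Counts were made per gene, so footprints on a uORF and on the main ORF of the same mRNA were not separated, except that a separate gene model covers the first uORF of DDIT3. The first comparison asked how the members' footprints related to their RNA in siControl cells. RPF/Input was the RPF level divided by the Input level of the same gene, and its log2 value came from the edgeR fit of 3 RPF against 3 Input libraries. Of 20595 genes tested, 92.2% differed between the assays, with 37.2% lower and 55.0% higher in RPF, so a call alone said little about any member and the size is given with its place among genes. Footprints lie mainly on coding sequence and Input reads on the whole transcript, and the share of the transcript that is coding is given for each member with a value; its part in RPF/Input was not tested.

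ATF4, the central activator of the response, lay at 984, 1048 and 1014 CPM in Input replicates 1 to 3 of siControl but at 63.6, 68.6 and 66.2 CPM in siControl RPF. The assays were far apart, with RPF at 0.0645 of Input (log2 -3.92 ± 0.04 SE, adjusted p = 1.91e-17, edgeR). Only 2.06% of the 12634 protein-coding genes tested had a lower value. Coding sequence made up 74.4% of the ATF4 transcript. The 4 ATF4 pseudogenes found by name held 0.528% of the summed CPM in siControl Input and 33.0% in RPF. With their counts added to those of ATF4, log2 RPF/Input was -3.34 ± 0.04.

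DDIT3, which encodes CHOP, a factor of late stress and cell death, lay at 25.4, 31.9 and 28.2 CPM in the siControl Input libraries and at 5.28, 5.84 and 5.93 CPM in RPF. All 3 RPF values lay well under all Input values. Its log2 RPF/Input was -2.32 ± 0.10 (adjusted p = 1.31e-11), at the 8.55th percentile of protein-coding genes, and 56.5% of its transcript was coding. Part of its leader was counted elsewhere. The gene model ENSG00000285133 (chr12:57517712-57517753 and chr12:57520418-57520480, - strand) begins at the start codon of the first DDIT3 uORF, has the 105 bases of that uORF with its stop, and lies wholly on DDIT3 exons. Its siControl libraries held 1.24, 1.32 and 1.31 CPM for Input but 3.03, 3.26 and 3.02 CPM for RPF, that is 35.3% of the summed CPM in RPF. With its counts added to those of DDIT3, log2 RPF/Input was -1.75 ± 0.09, so the size of the DDIT3 value depends on where these reads are counted. DDIT3 shares 355 exon bases with MARS1 on the opposite strand. MARS1 lay at a mean of 80.5 CPM in siControl Input and 82.4 CPM in RPF, and its part in the DDIT3 counts was not tested.

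ATF5, a factor related to ATF4 that also takes part in the mitochondrial stress response, differed little between the assays. In siControl it lay at 15.9, 14.3 and 16.5 CPM in Input and at 11.7, 12.2 and 11.1 CPM in RPF. Log2 RPF/Input was -0.38 ± 0.08 (adjusted p = 0.000295), at the 42.6th percentile, and 42.3% of the transcript was coding. It shares 626 exon bases with NUP62 on the opposite strand, a gene at a mean of 54.1 CPM in siControl Input and 36.4 CPM in RPF.

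The regulatory subunits that direct protein phosphatase 1 to eIF2alpha lay on opposite sides of the typical gene. PPP1R15A, the stress-induced subunit also called GADD34, lay at 136, 170 and 170 CPM in the siControl Input libraries and at 9.18, 8.27 and 9.60 CPM in RPF. Its log2 RPF/Input of -4.11 ± 0.10 (adjusted p = 5.42e-13) was the lowest of the members, with 1.77% of protein-coding genes lower. Coding sequence made up 86.2% of its transcript. PPP1R15B, the constitutive subunit, lay at 42.7, 46.8 and 41.3 CPM in the siControl Input libraries and at 63.4, 62.9 and 59.1 CPM in RPF. Every RPF library was above every Input library, with log2 RPF/Input at 0.53 ± 0.06 (67.9th percentile) and 40.7% of the transcript coding.

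IFRD1, a transcriptional coregulator, lay at 45.2, 49.3 and 47.1 CPM in the siControl Input libraries and at 32.0, 31.4 and 30.9 CPM in RPF. The RPF libraries were all lower, with log2 RPF/Input at -0.56 ± 0.05 (37.8th percentile) and 41.5% of the transcript coding. SLC35A4, a solute carrier of the nucleotide sugar transporter family whose mRNA is also known for the protein encoded by its long uORF, was rare, at 13 to 16 counts in siControl Input and 9 to 17 in RPF. Its log2 RPF/Input was -1.03 ± 0.23 (adjusted p = 0.00127, edgeR). SLC35A4 passed the filter on low counts only through its Input libraries. Its place in this test and in the order below therefore depended on the assay where it was high. DESeq2 did not call it (adjusted p = 0.0712), and 36.6% of its transcript was coding.

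Of the ATF4-induced genes, TRIB3, a pseudokinase that feeds back on ATF4, lay at 30.6, 40.7 and 36.9 CPM in the siControl Input libraries and at 127, 120 and 122 CPM in RPF. RPF was thus 3.44 times Input, with log2 RPF/Input at 1.79 ± 0.07 (adjusted p = 8.77e-12), and 90.7% of protein-coding genes had a lower value. Its transcript was 45.7% coding. ASNS, asparagine synthetase, lay at 40.0, 48.4 and 43.2 CPM in Input and at 43.5, 40.9 and 42.7 CPM in RPF. These values overlapped (log2 -0.03 ± 0.06, adjusted p = 0.71), and 70.7% of the ASNS transcript was coding. ASNS shares 1985 exon bases with the lncRNA ENSG00000284707 on the same strand. That lncRNA and 4 ASNS pseudogenes held 51.0% of the summed CPM in siControl Input and 53.5% in RPF. CHAC1, which degrades glutathione, had 0 to 2 counts in each siControl library and 0 to 4 in each siIGF2BP3 library. It passed the filter in no comparison, and a count of 0 allows up to 3 counts, or 0.095 to 0.267 CPM at these depths (counting error only).

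**Figure D2:**
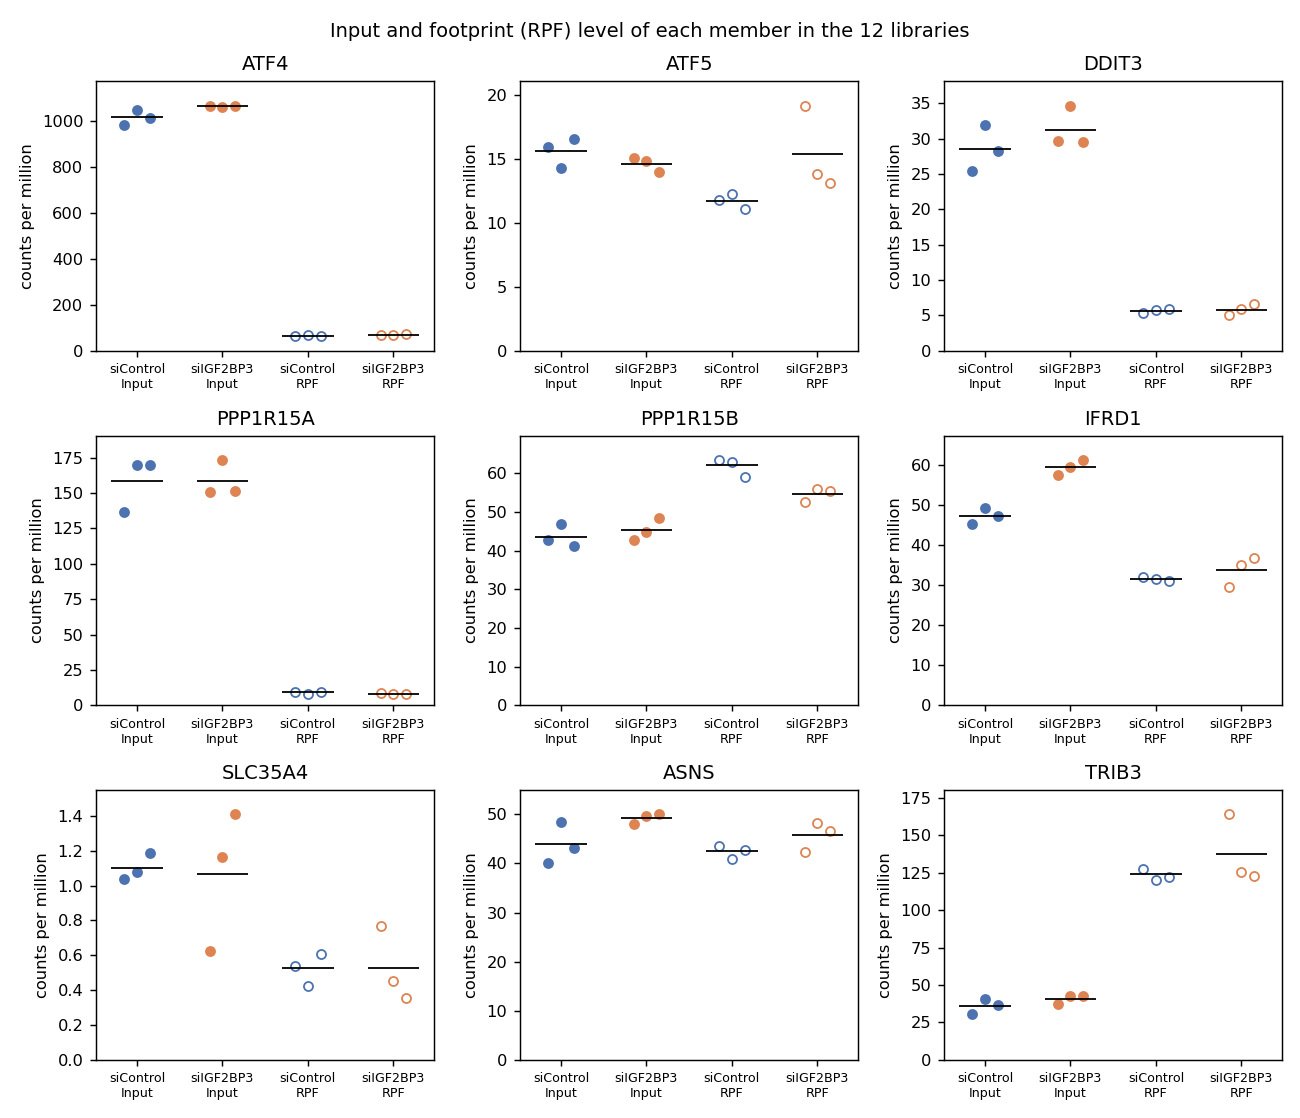
Level of 9 members in CPM (y axis, from 0, scaled to each gene) in the 4 groups (x axis). Points are single libraries in replicate order, filled for Input and open for RPF, in blue for siControl and orange for siIGF2BP3, and the line is the group mean (siControl RPF replicates 2 and 3 averaged first); the RPF points of ATF4, DDIT3 and PPP1R15A lie far under Input and those of TRIB3 far over it.

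In order of log2 RPF/Input in siControl cells, the members ran PPP1R15A, ATF4, DDIT3, SLC35A4, IFRD1, ATF5, ASNS, PPP1R15B and TRIB3. Neighbours less than 2 combined SEs apart were PPP1R15A and ATF4, SLC35A4 and IFRD1, and IFRD1 and ATF5. The closeness of PPP1R15A and ATF4 depended on leaving out the ATF4 pseudogenes, since ATF4 lay at -3.34 with their counts added. The 7 uORF mRNAs spread from -4.11 to 0.53, and ASNS and TRIB3 lay at -0.03 and 1.79, against a median of -0.12 over all protein-coding genes. The classes were not separate, because PPP1R15B lay above ASNS. A comparison of the classes was not tested, since members are not replicates.

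Over all genes with a MANE Select transcript and a value in siControl cells, the median log2 RPF/Input was 0.15 for the 7346 without an upstream ATG and -0.56 for the 4749 with at least 1. For the 1466 with an overlapping uORF it was -0.60. These sets were not matched for leader length or coding share, and the part of either in the medians was not tested. The quartiles of the genes with an upstream ATG were -1.58 and 0.36, so ATF4, PPP1R15A and DDIT3 lay under that range and ATF5, IFRD1 and SLC35A4 within it. PPP1R15B and TRIB3, which also carry upstream ATGs, lay over it.

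The same fit on siIGF2BP3 libraries is given as values. Log2 RPF/Input was -4.12 ± 0.10 for PPP1R15A, -3.78 ± 0.05 for ATF4 and -2.26 ± 0.12 for DDIT3 (-1.73 ± 0.12 with the counts of ENSG00000285133 added). It was -0.67 ± 0.08 for IFRD1, 0.04 ± 0.07 for ASNS, 0.20 ± 0.16 for ATF5, 0.41 ± 0.07 for PPP1R15B and 1.90 ± 0.14 for TRIB3. The ATF4 value leaves out its pseudogenes, which held 0.518% of the summed CPM in siIGF2BP3 Input and 32.5% in RPF. The members kept the siControl order except that ATF5 stood above ASNS, from which it differed by less than 2 combined SEs. ATF5 and PPP1R15B also differed by less than that. Without siIGF2BP3 RPF replicate 1, the value of ATF5 was 0.02 ± 0.09. SLC35A4 did not pass the filter in that fit.

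**Figure D3:**
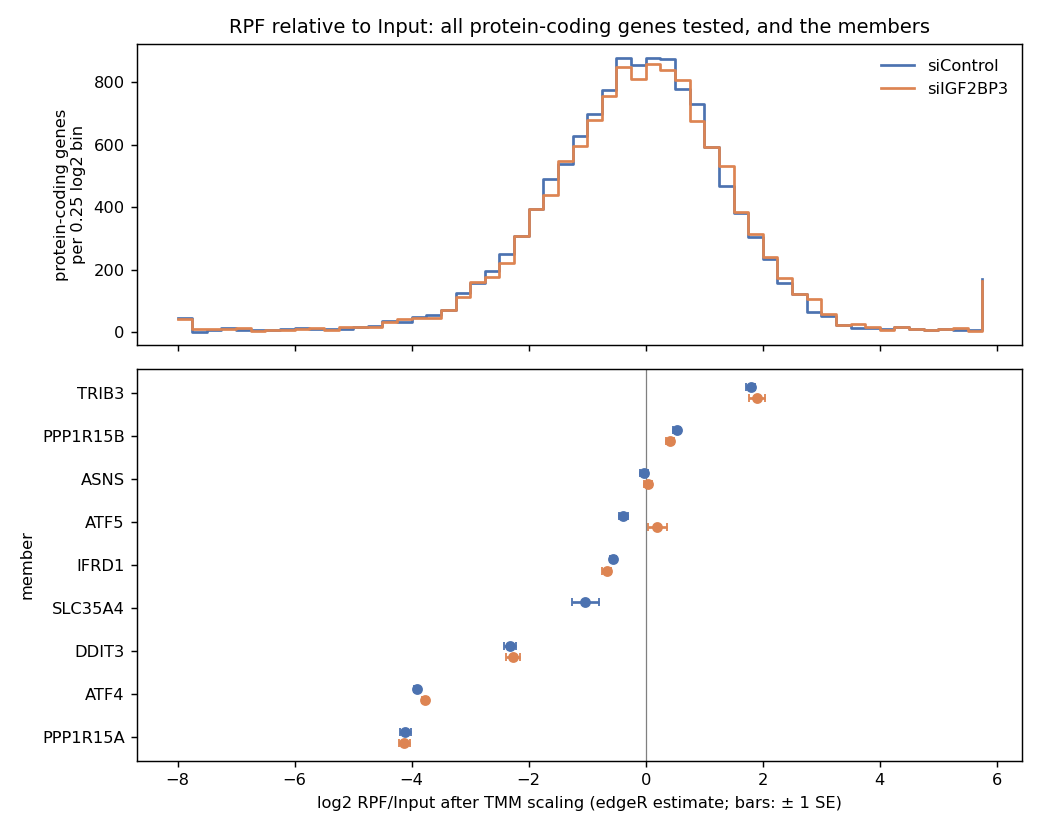
Top, number of protein-coding genes (y axis) per bin of 0.25 in log2 RPF/Input (x axis) for siControl in blue and siIGF2BP3 in orange, with values beyond the axis in the end bins. Bottom, the edgeR estimate of each member on the same axis with bars of 1 SE; PPP1R15A and ATF4 sit in the left tail near -4, TRIB3 at 1.79 and 1.90, and the other members between.

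The knockdown comparisons asked whether knockdown of IGF2BP3 changed the members' RNA, their footprints or their translation efficiency (TE), the RPF change over the RNA change. The log2 fold change of IGF2BP3 itself was -0.39 ± 0.05 in RNA and -1.59 ± 0.08 in RPF, so the knockdown was partial. In RNA, IFRD1 rose and the other 8 tested members did not pass the test, that is 1 of 9 called against 5.96% of all 14759 genes tested (4.05% higher). IFRD1 lay at 57.5, 59.3 and 61.2 CPM in siIGF2BP3 Input. All 3 values lay above the siControl range of 45.2 to 49.3 CPM, as did the siIGF2BP3 values of 19.2% of genes tested in Input. The log2 fold change was 0.28 ± 0.06 (adjusted p = 0.00575, edgeR), and the call held in all 11 alternatives, with adjusted p from 0.00288 to 0.0361. The 3′ end of IFRD1 shares 157 exon bases with LSMEM1 on the same strand. LSMEM1 lay at a mean of 3.59 CPM with siControl and 5.46 CPM with siIGF2BP3 in Input, and its part in the IFRD1 count was not tested.

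ATF4 RNA was at 1067, 1061 and 1066 CPM in siIGF2BP3 Input, above all 3 siControl libraries, yet after TMM scaling the log2 fold change was 0.02 ± 0.04 (adjusted p = 0.85). PPP1R15A lay at 150, 173 and 151 CPM (-0.05 ± 0.08) and DDIT3 at 29.6, 34.7 and 29.5 CPM (0.08 ± 0.09), both overlapping siControl. ATF5 (-0.14 ± 0.10), PPP1R15B (0.01 ± 0.07) and SLC35A4 (-0.09 ± 0.35) also overlapped siControl. TRIB3, at 37.3, 42.3 and 42.6 CPM, had a log2 fold change of 0.12 ± 0.09 (adjusted p = 0.44). ASNS, at 48.1, 49.6 and 50.0 CPM, had 0.11 ± 0.07 (adjusted p = 0.37). Neither ATF4-induced gene passed the test.

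In RPF, 0 of 9 members passed the test, against 1.66% of the 20192 genes tested, and 3 had an unadjusted p under 0.05 (PPP1R15B, ATF5 and ASNS), as did 16.1% of all genes tested. With siControl RPF replicates 2 and 3 summed, 14 genes were called in place of 336. ATF5 had the largest estimate. Its siIGF2BP3 RPF libraries lay at 19.1, 13.8 and 13.1 CPM, all above siControl, with replicate 1 the highest. The log2 fold change was 0.39 ± 0.15 (adjusted p = 0.27) and was 0.20 ± 0.06 (adjusted p = 0.0503) without that replicate. For PPP1R15B, the siIGF2BP3 values of 52.7, 55.8 and 55.5 CPM lay below all siControl values. Its log2 fold change was -0.16 ± 0.05 (adjusted p = 0.15).

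ATF4 footprints lay at 69.0, 70.7 and 71.2 CPM in siIGF2BP3, above the siControl libraries by a small margin (0.11 ± 0.05, adjusted p = 0.37). Non-overlap of this kind was common in RPF, with 10.9% of genes tested all above and 14.8% all below siControl. IFRD1 lay at 29.5, 35.0 and 36.8 CPM (0.12 ± 0.07) and overlapped siControl, as did ASNS at 42.4, 48.1 and 46.6 CPM (0.13 ± 0.05). TRIB3 lay at 164, 125 and 123 CPM, with the single high value in replicate 1 (0.18 ± 0.12). DDIT3 (0.08 ± 0.10), PPP1R15A (-0.12 ± 0.09) and SLC35A4 (-0.12 ± 0.31) overlapped siControl too.

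One library decided the count of calls in RPF. Without siIGF2BP3 RPF replicate 1, 3 members passed, namely IFRD1 at 0.19 ± 0.04 (adjusted p = 0.00936), ASNS at 0.16 ± 0.04 (adjusted p = 0.0146) and PPP1R15B at -0.15 ± 0.04 (adjusted p = 0.0162). In that fit 16.5% of all genes passed. The siIGF2BP3 RPF libraries left in it, replicates 2 and 3, differed by little more than the sampling noise (mean chi-square per gene 1.15). The p-values of that fit therefore measure a spread that may be technical.

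In TE, 0 of 9 members passed the test, against 2.21% of the 13395 genes tested, and 1 had an unadjusted p under 0.05 (ATF5), as did 15.8% of all genes tested. The fit with siControl RPF replicates 2 and 3 summed called 141 genes in place of 296. The estimate for ATF5 was 0.52 ± 0.17 (adjusted p = 0.13), and it ranged from 0.35 to 0.63 over the 18 alternatives, none of which called it. ATF4 was at 0.09 ± 0.07, IFRD1 at -0.15 ± 0.10 and PPP1R15B at -0.17 ± 0.09. DDIT3 (0.01 ± 0.16), PPP1R15A (-0.07 ± 0.14), SLC35A4 (-0.03 ± 0.46), ASNS (0.01 ± 0.10) and TRIB3 (0.04 ± 0.17) were within 1 SE of 0. DESeq2, the tool the study's methods name for TE, also called no member in RNA other than IFRD1, and none in RPF or TE. It gave no adjusted p for ATF5 in RNA, nor for SLC35A4 and CHAC1 in RNA, RPF or TE, so these could not be called.

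**Figure D4:**
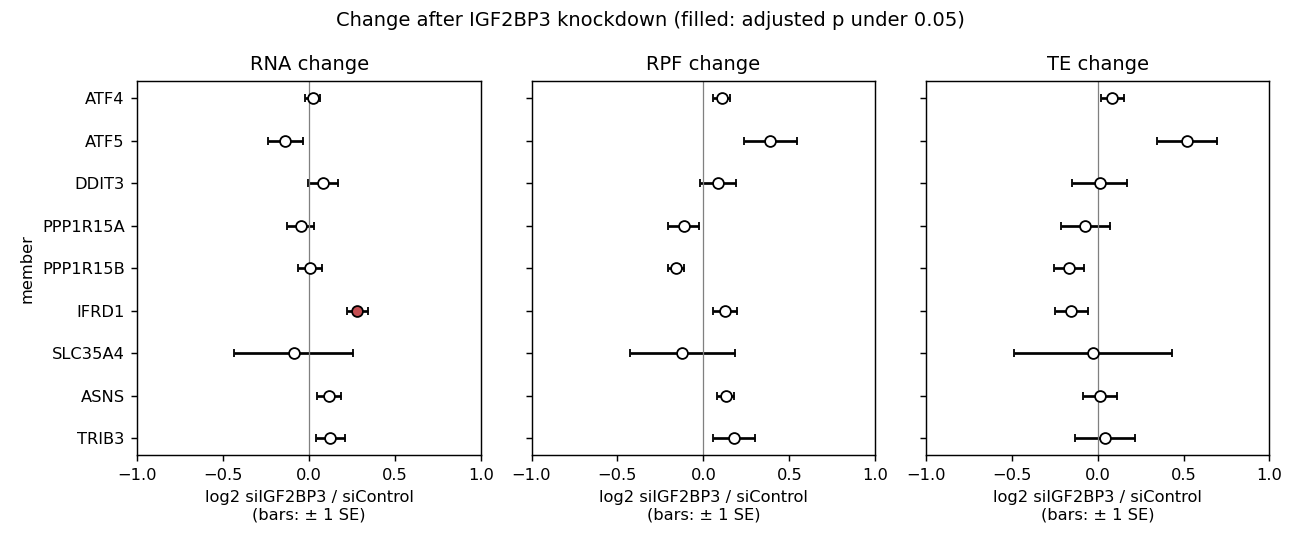
Log2 fold change of siIGF2BP3 over siControl (x axis) for 9 members (y axis) in RNA, RPF and TE, as edgeR estimates with bars of 1 SE. The filled point is IFRD1 in RNA at 0.28, with an adjusted p of 0.00575, and all open points did not pass the test.

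The rest of the pathway was read from named lists. Of the 4 eIF2alpha kinases (EIF2AK1 to EIF2AK4, the sensors of the response), none passed the test in RNA, RPF or TE, with RNA values between -0.11 and 0.05. Of the 8 subunits of eIF2 and of its exchange factor eIF2B, none passed in any of these comparisons, with RNA values between -0.21 and 0.15. The 4 further mRNAs with known uORFs, CEBPA, CEBPB, EPRS1 and IBTK, gave no call either, with TE values between -0.12 and 0.44. Over all genes tested, the median was 0.00 in RNA and in TE and 0.01 in RPF.

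Among 23 other ATF4 target genes, none passed in RNA, 3 rose in RPF with a list median of 0.04, and 1 rose in TE. Over all genes tested, 5.96% passed in RNA, 1.02% rose in RPF and 0.791% rose in TE. SLC7A11, the cystine transporter subunit, lay at 43.8 to 44.2 CPM in siControl RPF and at 52.4 to 64.1 CPM in siIGF2BP3 RPF (log2 fold change 0.46 ± 0.07, adjusted p = 0.0224). Its RNA did not pass the test (0.05 ± 0.05), and its TE rose by 0.41 ± 0.09 (adjusted p = 0.0218). XPOT, the tRNA exportin, lay at 88.3 to 96.1 CPM against 108 to 116 CPM in RPF (0.30 ± 0.05, adjusted p = 0.0305). PSPH, the last enzyme of serine synthesis, lay at 87.1 to 87.6 CPM against 100 to 106 CPM in RPF (0.25 ± 0.05, adjusted p = 0.0465). All 3 RPF calls were lost with siControl RPF replicates 2 and 3 summed (adjusted p of 0.13, 0.15 and 0.22 in that order), and also without any single RPF library other than siIGF2BP3 replicate 1. That of PSPH was further lost without a filter (adjusted p = 0.0631) and with the length offset (adjusted p = 0.056). The TE call of SLC7A11 was lost in the summed fit as well (adjusted p = 0.0536). It was also lost without siControl Input replicate 1 or 3, without any one siControl RPF library, and without siIGF2BP3 Input or RPF replicate 2.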

How the data were processed

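HepG2 Input and RPF libraries were analysed, 3 in each of 4 groups taken from the labels. The authors used cutadapt, STAR (hg38) and featureCounts. Versions, strand and multi-mapping options, and the making of the Input libraries, are not given in the sources used here. The deposited values, estimated counts for each gene and often fractions, were rounded before testing (at most 0.0445% of a library). Symbols came from GENCODE release 44 (58207 of 58721 identifiers, 99.1%). RNA, RPF, TE (interaction over 12 libraries) and RPF/Input were fitted on all genes with edgeR 4.0.16 in R 4.3.3 (filterByExpr, TMM, robust quasi-likelihood, two-sided, Benjamini-Hochberg threshold 0.05). CPM used the library total, without TMM. The SE was the size of the estimate over the root of its F statistic. Replicate numbers were checked for pairing, and the main fits did not pair the samples.

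Alternatives were DESeq2 1.42.0, RLE factors, no filter, no TMM factors, a replicate block, a gene-length offset, summed siControl RPF replicates 2 and 3, each library left out and, added after seeing the data, summed gene copies (for DDIT3, the gene model on its first uORF). Fits were tested on simulated data. Members and lists were chosen with earlier results of these data known. Named genes were the members, IGF2BP3, up to 4 called genes per list, and the 5 genes most like ATF4. Overlapping genes and near-identical copies may share reads. Reads carried no molecular identifiers, so intervals and floors cover counting error only. Upstream ORFs ran from an ATG before the main start to the first in-frame stop, and 30 of 36 start windows lay in 1 exon and matched the genome. The other windows spanned a junction.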

Additional observations from a re-analysis of the deposited data

How the results depend on the processing

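No member's call in RNA, TE or RPF/Input changed under any alternative, except SLC35A4 in RPF/Input under DESeq2 (-0.96). In RPF the number of members called ran from 0 to 3 as libraries were left out. Over all genes, 336 were called in RPF (DESeq2 642, siControl RPF replicates 2 and 3 summed 14) and 296 in TE (DESeq2 456, summed 141). With single libraries left out, calls ran from 444 to 907 in RNA, from 11 to 3410 in RPF, where the highest lacked siIGF2BP3 RPF replicate 1, and from 126 to 1347 in TE. The cause was not tested.

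Estimates that changed sign were all of uncalled members. PPP1R15B in RNA was 0.00 under DESeq2, RLE factors and no filter. DDIT3 in TE was -0.03 with copies summed, -0.02 under the replicate block and -0.06 with the length offset, and SLC35A4 in TE was 0.04 under DESeq2 and 0.07 under the block. ASNS in RPF/Input was 0.05 with copies summed, 0.06 under DESeq2, 0.02 with RLE factors, 0.03 without a filter and 0.02 with the RPF replicates summed. With single libraries left out, ATF4 ran from -0.01 to 0.04, DDIT3 from -0.01 to 0.17 and PPP1R15A from -0.16 to 0.00 in RNA. PPP1R15B ran from -0.04 to 0.06 and SLC35A4 from -0.32 to 0.16 in RNA. DDIT3 ran from -0.01 to 0.15 and SLC35A4 from -0.38 to 0.13 in RPF. DDIT3 ran from -0.08 to 0.10, PPP1R15A from -0.12 to 0.04 and SLC35A4 from -0.28 to 0.21 in TE. ASNS ran from -0.06 to 0.09 and TRIB3 from -0.11 to 0.16 in TE. ASNS ran from -0.09 to 0.07 in RPF/Input.

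Same-numbered libraries deviated together weakly (r of 0.054, 0.032 and 0.019 in Input and 0.299, 0.213 and 0.087 in RPF). Libraries with unlike numbers ran from -0.039 to 0.009 in Input and from -0.311 to 0.162 in RPF. siControl RPF replicate 3 correlated best with siIGF2BP3 replicate 2, and each other siControl library correlated best with its same-numbered siIGF2BP3 library. With the replicate block, calls were 931 in RNA, 379 in RPF, 207 in TE and 18950 in RPF/Input, against 879, 336, 296 and 18980 without it. The block changed no member's call, and XPOT and PSPH in RPF were no longer called (adjusted p = 0.0577 and 0.0923). SLC35A4, with at most 17 counts per library, and CHAC1 were limited by depth.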

Other observations

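The genes whose level moved most like that of ATF4 were COG3, ISCU, TAF1D, TMEM260 and MORC3, of 9799 ranked genes with a mean of at least 5 CPM in each assay. Likeness was the Pearson correlation of log2 CPM, less the mean of each assay, over the 12 libraries, which include 2 siControl RPF libraries counted elsewhere as 1. It was 0.91 for COG3, 0.89 for ISCU, 0.88 for TAF1D, 0.87 for TMEM260 and 0.87 for MORC3, given as a description with no p. These CPM values had no TMM scaling, and after it the log2 fold change of ATF4 in RNA was 0.02 ± 0.04. The part of library composition in the likeness was not tested. MORC3 rose in both assays (log2 fold change 0.32 ± 0.07 in RNA, adjusted p = 0.00415, and 0.42 ± 0.06 in RPF, adjusted p = 0.0219, edgeR). The ranking used these same libraries, and ATF4 CPM was higher in all siIGF2BP3 libraries than in all siControl libraries of each assay. It thus favoured genes that rose after the knockdown, and the p-values of MORC3 are not independent of its choice. The RPF call of MORC3 was lost with siControl RPF replicates 2 and 3 summed (adjusted p = 0.13) and without any single RPF library other than siIGF2BP3 replicate 1 (adjusted p from 0.0817 to 0.17). None of the other 4 passed the test in RNA, RPF or TE, against 5.96%, 1.66% and 2.21% of all genes tested.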
